A study of Mus musculus with 9 samples.

Results

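The Fc gamma receptor genes of splenic myeloid-derived suppressor cells (MDSCs) were followed across MDSC subsets and genotypes. They are Fcgr1, Fcgr2b, Fcgr3 and Fcgr4, which encode the IgG-binding alpha chains, and Fcer1g, which encodes their common signalling chain. The members were chosen by symbol, and all 5 were found among the 23284 genes listed in each of the 9 samples. MDSCs were purified by magnetic selection from the spleens of mice bearing tumours of SCT cells, a spindle cell tumour line derived from a p16 knockout mouse. PMN-MDSCs, the neutrophil-like subset, were selected as Ly6G+ cells and Mo-MDSCs, the monocyte-like subset, as Ly6G- Gr-1+ cells. There were 3 samples each of PMN-MDSCs from WT C57BL/6J mice, Mo-MDSCs from WT C57BL/6J mice and Mo-MDSCs of p16/p21-DKO C57BL/6 mice, which lack these cyclin-dependent kinase inhibitors. All 3 groups thus came from tumour-bearing hosts, and there was no tumour-free group among the samples analysed. The labels give an age of 3 weeks for all mice, whereas the study's methods describe older mice from which cells were collected 3 weeks after inoculation. Nothing in the labels says whether the samples of a group are separate mice or pools, so that p-values measure the spread between these samples.

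Fc gamma receptors bind the constant part of IgG and let myeloid cells take up opsonised particles and respond to immune complexes. Fcgr1 (CD64) binds monomeric IgG with high affinity, while Fcgr3 (CD16) and Fcgr4 bind complexed IgG with lower affinity. These activating receptors associate with the gamma chain encoded by Fcer1g, whose ITAM is phosphorylated by Src-family kinases and then recruits Syk. Fcgr2b (CD32B) is the inhibitory member, which carries its own ITIM, needs no gamma chain, and recruits the lipid phosphatase SHIP1. The ratio of activating to inhibitory receptors is widely taken as a setting of the threshold at which a myeloid cell responds to IgG. B cells express Fcgr2b, NK cells express Fcgr3, and tissue macrophages express several members, so that other cells left after purification could add to these values.

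Of the genes, 4 (Fcgr2b, Fcgr4, Fcgr3 and Fcer1g) lie in a row on chromosome 1, and Fcgr1 is alone on chromosome 3. In GENCODE on GRCm38, Fcgr2b occupies chr1:170958617-170976547 on the minus strand and Fcgr4 chr1:171018920-171029761 on the plus strand. Fcgr3 lies at chr1:171051174-171064935 and Fcer1g at chr1:171229572-171234365, both on the minus strand, and Fcgr1 at chr3:96282909-96293969, also on the minus strand. The sequences just upstream of the RefSeq transcription starts (GRCm38.p6, 5′ to 3′ on the strand of the gene, without bases of annotated exons) are shown because the 5 neighbouring or functionally paired genes did not change in the same direction between the subsets. Capitals mark matches of 2 motifs searched on both strands, the purine-rich motif GAGGAA (its reverse complement is TTCCTC), a common core of sites for the myeloid factor PU.1, and TTCNNNGAA, the palindrome of STAT sites.
Fcgr1, chr3:96293970-96294119: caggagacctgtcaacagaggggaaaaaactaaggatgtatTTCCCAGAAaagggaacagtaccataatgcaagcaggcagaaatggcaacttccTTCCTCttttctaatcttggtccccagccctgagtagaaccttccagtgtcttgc
Fcgr3, chr1:171059404-171059553: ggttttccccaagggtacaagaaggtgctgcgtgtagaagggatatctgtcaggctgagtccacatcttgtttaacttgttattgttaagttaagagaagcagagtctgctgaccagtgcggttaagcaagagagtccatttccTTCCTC
Fcgr4, chr1:171018776-171018919: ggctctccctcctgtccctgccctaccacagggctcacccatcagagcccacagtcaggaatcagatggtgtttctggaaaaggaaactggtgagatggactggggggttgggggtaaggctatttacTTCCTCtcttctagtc
Fcgr2b, chr1:170976128-170976174: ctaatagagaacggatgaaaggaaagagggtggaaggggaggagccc
Fcer1g, chr1:171234366-171234499: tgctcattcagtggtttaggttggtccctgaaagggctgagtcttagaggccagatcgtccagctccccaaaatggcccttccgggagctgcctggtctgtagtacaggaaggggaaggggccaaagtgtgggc
Of the 250 bases before the start of Fcgr2b, 203 lie in exons that GENCODE assigns to Fcgr2b or Gm38204, which leaves 47 bases. The RefSeq start used for Fcgr3 (chr1:171059403) lies inside the gene as GENCODE places it, with a GENCODE start at chr1:171064935. Of the 250 bases before that RefSeq start, 27 lie in Fcgr3 exons. The windows of Fcgr3 and Fcgr2b are thus within the gene bodies given above. The PU.1-type motif was matched upstream of Fcgr1, Fcgr3 and Fcgr4, at 55, 6 and 22 bases before their RefSeq starts. Its letters were not in the windows of Fcgr2b and Fcer1g. The STAT-type palindrome was matched only upstream of Fcgr1, at 109 bases before the start. Of 32851 promoters in the same reference, 23.3% hold the first motif and 7.02% the second. Both motifs were picked after the letters had been seen, and a match is not evidence of a binding site.

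Expression is given in FPKM, fragment counts divided by transcript length and by the size of the library, a scale that corrects for length and so allows levels of different genes to be compared. On this scale Fcer1g was the highest member in all 3 groups. Among 23284 genes its mean had rank 76 in WT PMN-MDSCs, rank 101 in WT Mo-MDSCs and rank 117 in DKO Mo-MDSCs. Fcgr3 was second in all 3 groups, with means of 591 ± 55.8, 299 ± 17.7 and 274 ± 26.2 FPKM (SD, n = 3). The order of the other receptors differed. In WT PMN-MDSCs the order was Fcgr4, Fcgr2b and Fcgr1, in WT Mo-MDSCs it was Fcgr2b, Fcgr4 and Fcgr1, and in DKO Mo-MDSCs it was again Fcgr4, Fcgr2b and Fcgr1. Within each group the samples of neighbouring genes in this order did not overlap.

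**Figure D1:**
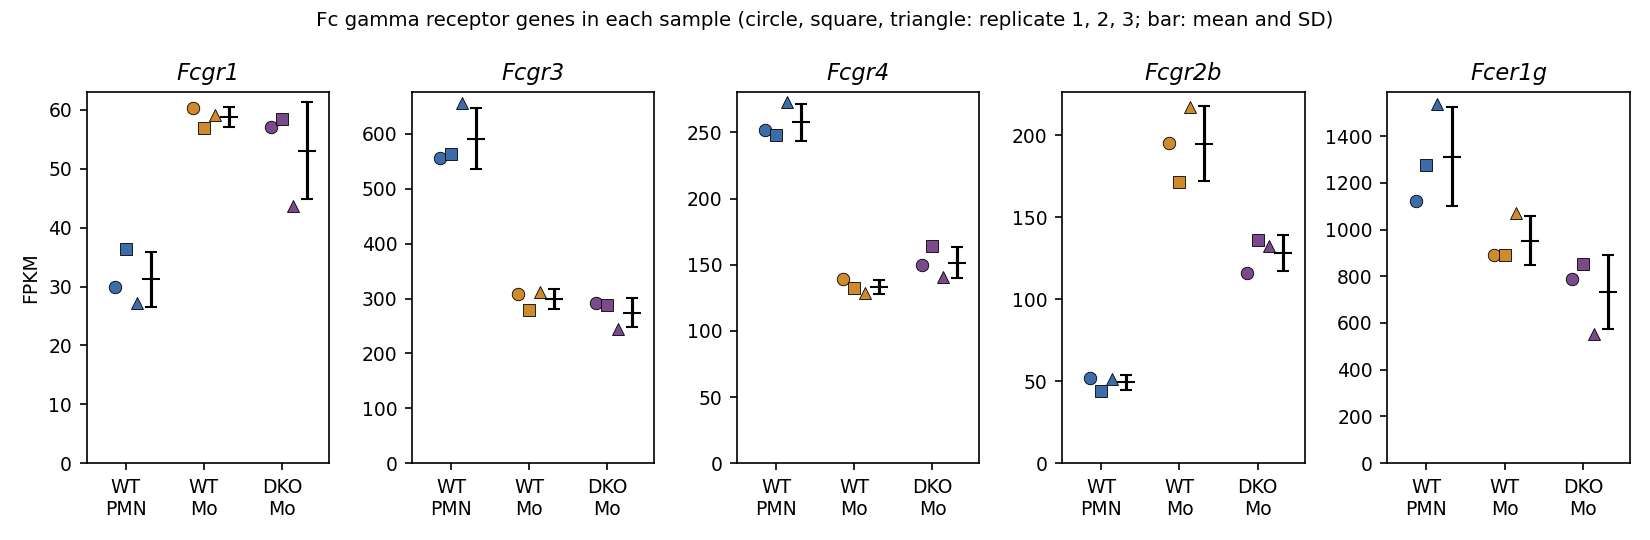
FPKM of the 5 genes in each sample, with 1 panel per gene, a separate linear axis from 0 in each panel, and the mean and SD of each group as a bar (n = 3). Fcgr1 and Fcgr2b were lowest in PMN-MDSCs, Fcgr3 and Fcgr4 were highest there, and DKO Mo-MDSC replicate 3 was the lowest Mo-MDSC sample for Fcgr1, Fcgr3 and Fcer1g.

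To find out how the receptors differed between the monocytic and the granulocytic subset, WT Mo-MDSCs were compared with WT PMN-MDSCs. Fcgr2b was 3.94-fold and Fcgr1 1.89-fold higher in Mo-MDSCs, whereas Fcgr3 and Fcgr4 were lower, at 0.507 and 0.518 of the level in PMN-MDSCs. Fcer1g was lower too, at 0.729 of that level. The study used a fold above 2 and a p below 0.05 for chemokine receptor genes. With the fold and unadjusted p of limma, Fcgr2b alone of the members passed this line, as did 3.55% of all genes. All 5 genes had an adjusted p-value below 0.05 in limma, 2 higher and 3 lower. This count has to be read against a background of 39.1% of the 11491 genes tested (18.5% higher and 20.6% lower), since the subsets differed in many genes. No member had overlapping groups, a property of 52.5% of all genes tested, and an exact permutation test of a single gene with 3 samples against 3 gives its smallest possible p of 0.1 for each.

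Among the activating receptors, Fcgr1 was measured at 29.97, 36.4 and 27.2 FPKM in WT PMN-MDSC replicates 1 to 3. The WT Mo-MDSC values were 60.3, 56.9 and 59.1 FPKM, and each of them was above every PMN-MDSC sample. The log2 fold change was 0.92 (SE 0.11, adjusted p = 0.000872). Fcgr3 showed the opposite direction, with 556, 563 and 656 FPKM in PMN-MDSCs. In WT Mo-MDSCs it was 308, 279 and 311 FPKM, again with no overlap. Its log2 fold change was -0.98 (SE 0.098, adjusted p = 0.000343). Fcgr4 stood at 252, 248 and 273 FPKM in PMN-MDSCs. The Mo-MDSC samples had 139, 132 and 128 FPKM, close to each other and all below the PMN-MDSC samples. The log2 fold change of Fcgr4 was -0.95 (SE 0.076, adjusted p = 0.00013), nearly that of Fcgr3, which is its neighbour on the chromosome. Fcgr2b, the member on the other side of Fcgr4, changed in the opposite direction.

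The inhibitory receptor Fcgr2b was at 52.3, 43.8 and 51.7 FPKM in PMN-MDSCs. In WT Mo-MDSCs it was at 196, 171 and 217 FPKM, so that the lowest Mo-MDSC sample was well above the highest PMN-MDSC sample. It had the largest change of the 5 genes, with a log2 fold change of 1.98 (95% confidence interval 1.71 to 2.25, adjusted p = 3.35e-05). In rank of mean FPKM it stood at 2049 of all genes in PMN-MDSCs and at 384 in WT Mo-MDSCs. Fcgr2b is also expressed by B cells, and the summed FPKM of 8 B cell markers was 1573 to 1819 in PMN-MDSCs against 1142 to 1293 in WT Mo-MDSCs. The part of B cells in the values of Fcgr2b was not tested. Fcgr2b and Fcgr3 share sequence. Of the 75-base windows in their GENCODE coding transcripts, 94 are identical, 2.48% of those of Fcgr2b and 5.78% of those of Fcgr3, and reads from them may have been divided between the genes. No such window is shared by any other pair of members.

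The gamma chain gene Fcer1g was measured at 1122, 1276 and 1539 FPKM in PMN-MDSCs. Its WT Mo-MDSC values were 891, 893 and 1072 FPKM, just below the lowest PMN-MDSC sample. The log2 fold change of -0.46 (SE 0.14, adjusted p = 0.0428) had the highest adjusted p of the 5. Each same-numbered pair of samples differed in this direction, by -0.33, -0.51 and -0.52 on the log2 scale, and with replicate number as a block the adjusted p was 0.00184. Without the block the adjusted p-value was above 0.05 when single samples were left out, at 0.0859 and 0.0976 without PMN-MDSC replicates 2 and 3 and at 0.13 and 0.118 without WT Mo-MDSC replicates 1 and 2. It was 0.0936 in replicates 2 and 3 alone, which the labels place in a later library series than replicate 1. When the values were rescaled to the same total in every sample (transcripts per 1000000, TPM), its log2 fold change was -0.01 (adjusted p = 0.924). TPM moved the median of all genes by 0.439, because the totals of FPKM differed between the subsets, while the other 4 members kept their directions and calls with it.

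**Figure D2:**
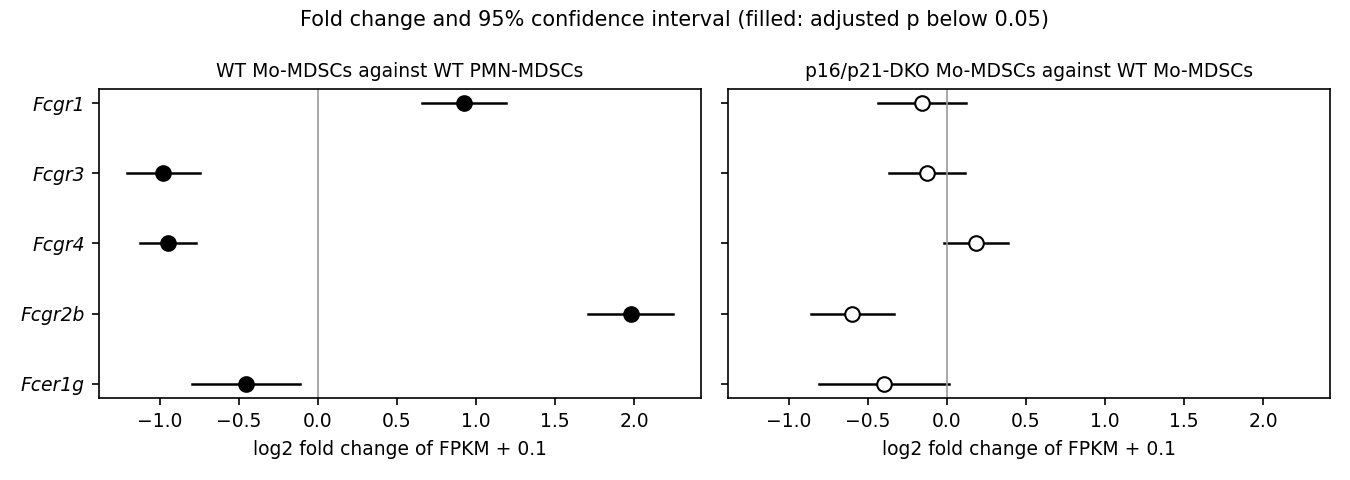
Log2 fold change of FPKM + 0.1 with its 95% confidence interval for the 5 genes, WT Mo-MDSCs against WT PMN-MDSCs on the left and p16/p21-DKO against WT Mo-MDSCs on the right. Filled points have an adjusted p below 0.05, which all 5 genes have on the left and none on the right, and the WT Mo-MDSC samples enter both panels.

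The changes of the alpha chains altered their proportions. The sum of the 4 alpha chains was 929 FPKM on average in PMN-MDSCs and 686 FPKM in WT Mo-MDSCs. Fcgr3 made up 63.6% ± 1.33 of this sum in PMN-MDSCs and 43.6% ± 0.151 in WT Mo-MDSCs (SD, n = 3). The share of Fcgr4 was 27.7% in PMN-MDSCs and 19.5% in WT Mo-MDSCs. The share of Fcgr2b was 5.31% in PMN-MDSCs and 28.3% in WT Mo-MDSCs, and that of Fcgr1 was 3.39% and 8.58%. Ratios within a sample do not depend on how the libraries were scaled as a whole. The summed FPKM of the activating receptors (Fcgr1, Fcgr3 and Fcgr4) was 16.02, 19.3 and 18.5 times that of Fcgr2b in the PMN-MDSC samples. In the WT Mo-MDSC samples it was 2.59, 2.73 and 2.30 times that of Fcgr2b. Fcgr3 alone exceeded Fcgr2b by 10.6, 12.8 and 12.7 times in PMN-MDSCs and by 1.57, 1.63 and 1.43 times in WT Mo-MDSCs. Thus the inhibitory receptor, a minor transcript beside the activating receptors in PMN-MDSCs, came near to Fcgr3 in WT Mo-MDSCs. Fcer1g was 1.34, 1.51 and 1.61 times the activating sum in PMN-MDSCs and 1.76, 1.91 and 2.15 times that sum in WT Mo-MDSCs. The gamma chain was therefore higher per activating receptor in the Mo-MDSC samples, although its own level was lower. These ratios are descriptions of transcript levels and carry no test.

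**Figure D3:**
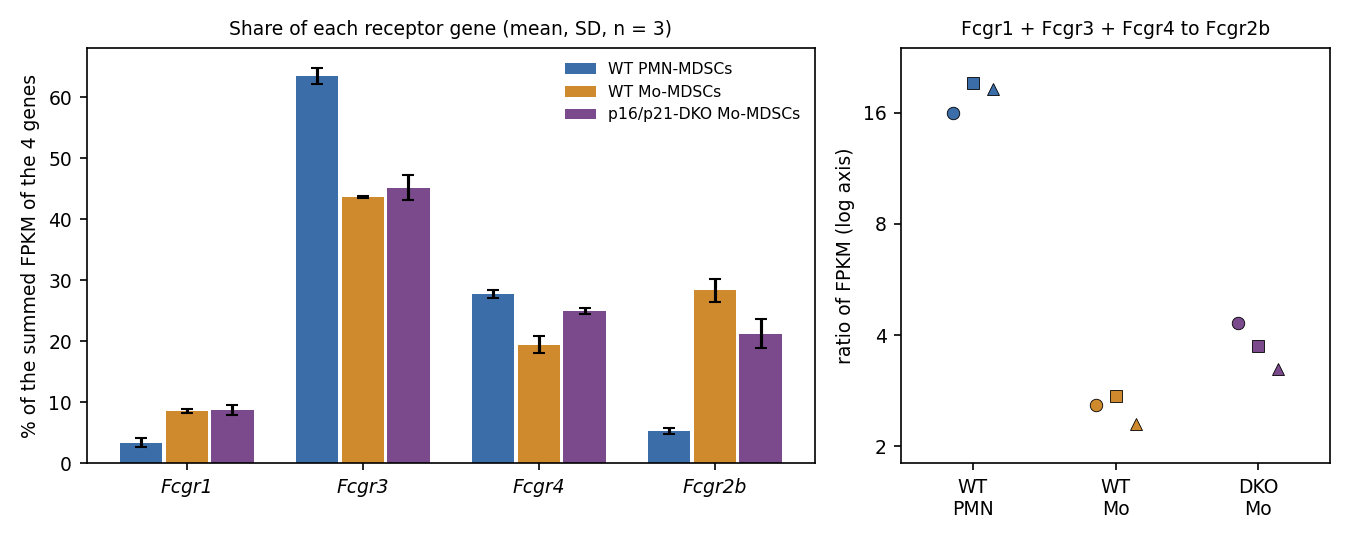
Left, share of each alpha chain gene in the summed FPKM of the 4 genes, as mean and SD of 3 samples per group. Right, ratio of the summed activating receptors to Fcgr2b in each sample on a log axis, with WT PMN-MDSCs at 16.02 to 19.3, WT Mo-MDSCs at 2.30 to 2.73 and p16/p21-DKO Mo-MDSCs at 3.23 to 4.30.

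The effect of the loss of p16 and p21 was examined by comparing DKO with WT Mo-MDSCs. No member passed an adjusted p of 0.05, against 0.253% of the 11451 genes tested (29 genes), and 1 member, Fcgr2b, had an unadjusted p below 0.05, against 15% of all genes. Fcgr2b was at 116, 136 and 133 FPKM in DKO Mo-MDSCs, each below the lowest WT Mo-MDSC sample at 171 FPKM. Its mean was 128 ± 10.96 FPKM against 195 ± 22.96 FPKM in WT (SD, n = 3). The log2 fold change was -0.60 (95% confidence interval -0.86 to -0.33), with an unadjusted p of 0.000884 and an adjusted p of 0.114 in limma. Over 15 other settings the log2 fold change stayed between -0.69 and -0.44 and the adjusted p between 0.0691 and 0.522. The study used a fold below 0.75 and a p below 0.05 for chemokine receptor genes. With the fold and unadjusted p of limma, Fcgr2b passed this line at a fold of 0.660, as did 4.43% of all genes. The summed FPKM of the 10 Mo-MDSC markers was lower too, at 2647 to 2968 in the DKO samples against 3159 to 3534 in WT. In the main fit none of the 10 was called and 5 had an unadjusted p below 0.05. All but Csf1r (0.05) were lower in DKO by log2 fold change. Ly6c2 and Ccr2 were at -0.86, Klf4 at -0.68, Ms4a4c at -0.55 and Cx3cr1 at -0.48. Ly86 (-0.28), Mpeg1 (-0.11), F13a1 (-0.10) and Cd68 (-0.06) changed less. Csf1r and Cd68 were the markers not called between the subsets. DKO replicate 3 had the lowest sum, whereas Fcgr2b was lowest in DKO replicate 1. The part of these markers in the values of Fcgr2b was not tested. The DKO samples remained above the PMN-MDSC samples, at 43.8 to 52.3 FPKM, and the pair of groups was not tested, since it differs in both subset and genotype.

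For Fcer1g the DKO values were 789, 854 and 551 FPKM, all below the lowest WT sample at 891 FPKM, with DKO replicate 3 far below the other two. The log2 fold change was -0.40 (95% confidence interval -0.81 to 0.01, adjusted p = 0.343), and without DKO replicate 3 it was -0.21. The summed PMN-MDSC markers were lower in DKO too, at 2414 to 5176 FPKM against 5415 to 16919 FPKM in WT. DKO replicate 3 was lowest and WT replicate 3 highest of the Mo-MDSC samples on both measures. The largest parts of this sum were Ngp, Camp, Lcn2 and Ltf, which were not called between the subsets in the main fit (adjusted p = 0.126 to 0.602). Of the PMN-MDSC markers called between the subsets, Retnlg (log2 fold change -1.71), Mmp9 (-0.89), Cxcr2 (-0.70) and Csf3r (-0.38) were lower in DKO. Mmp8, also called there, was higher in DKO than in WT Mo-MDSCs (0.79), and none of these was called between the genotypes. The part of the PMN-MDSC markers in the values of Fcer1g was not tested. Fcgr4 was at 150, 164 and 141 FPKM in DKO Mo-MDSCs, all just above the highest WT sample at 139 FPKM. Its log2 fold change was 0.18 (95% confidence interval -0.02 to 0.39, adjusted p = 0.37). Groups that do not overlap, as in these 3 genes, were found for 20.8% of all genes in this comparison. Fcgr1 was at 57.1, 58.5 and 43.6 FPKM in DKO Mo-MDSCs and overlapped with WT, with a log2 fold change of -0.16 (95% confidence interval -0.44 to 0.12, adjusted p = 0.561). Without DKO replicate 3 this value was -0.02. Fcgr3 was at 291, 288 and 244 FPKM and overlapped too, with a log2 fold change of -0.13 (95% confidence interval -0.37 to 0.11, adjusted p = 0.582), which became 0.03 with TPM and 0.07 after quantile normalization. The intervals reach down to a fold of 0.737 for Fcgr1 and 0.775 for Fcgr3, so that a p-value above the threshold does not show equal levels.

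In proportion to the other alpha chains, Fcgr2b took 21.2% ± 2.39 of the summed FPKM in DKO Mo-MDSCs and 28.3% ± 1.82 in WT Mo-MDSCs (SD, n = 3). The share of Fcgr4 was 24.9% in DKO and 19.5% in WT Mo-MDSCs, while those of Fcgr3 (45.2% and 43.6%) and Fcgr1 (8.71% and 8.58%) lay close together. The activating sum was 4.30, 3.74 and 3.23 times Fcgr2b in the DKO samples, above the 2.30 to 2.73 times of WT Mo-MDSCs and far below PMN-MDSCs. Fcgr3 was 2.52, 2.11 and 1.84 times Fcgr2b. The ratio of Fcer1g to the activating sum was 1.58, 1.67 and 1.29, below each WT Mo-MDSC sample. The same 3 WT Mo-MDSC samples enter both comparisons, whose values are therefore not independent of each other.

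The genes most like each member over the 9 samples were sought by the root mean square difference of centred log2 values among 11519 genes. For Fcgr3 they were 1810058I24Rik (0.054), Max (0.065) and Calm2 (0.066), and for Fcgr4 they were Cmpk2 (0.070), Oat (0.076) and Ypel5 (0.082). Cyba (0.085), Shfm1 (0.087) and Ada (0.091) were nearest to Fcer1g, and Loxl3 (0.106), Zscan12 (0.107) and Nmnat1 (0.115) to Fcgr1. Fcgr2b had no equally close gene, and its nearest were C920021L13Rik (0.159), Mob3b (0.174) and Bag3 (0.175). Among the members the closest pair was Fcgr3 and Fcgr4 at 0.170, followed by Fcgr3 and Fcer1g at 0.247, while Fcgr2b and Fcgr3 were the farthest apart at 1.305. Many other genes were closer, since Fcgr4 had only rank 282 in likeness to Fcgr3, and Fcgr3 rank 227 in likeness to Fcgr4.

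The genes around the receptors were then described by lists, with the median log2 fold change of all genes tested at 0.01 between the subsets and -0.02 between the genotypes. Of all 11491 genes, 18.5% were higher and 20.6% lower between the subsets. With TPM 5821 were higher and 950 lower, with the block 3167 and 3417, and after quantile normalization 2508 and 2061. Between the genotypes 0.253% were called and 15% had an unadjusted p below 0.05 in limma. The counts of lists and markers below have to be read against these. The list of other Fc receptors held receptors for IgM, IgE and intracellular IgG, among them Fcgrt, which recycles IgG. Of 9 tested, 2 were lower in the Mo-MDSCs of WT mice and none higher, with a median of -0.29. With replicate number as a block 6 were lower and 1 higher, and with TPM 1 was higher and none lower. Those lower were Fcmr, the IgM receptor (listed as Faim3, log2 fold change -0.63, adjusted p = 0.000952), and Fcrla, an Fc receptor-like protein of B cells in the same stretch of chromosome 1 (-0.61, adjusted p = 0.0021). Both are genes of B cells, whose markers Cd79a and Cd79b were lower in the same comparison, at log2 fold changes of -0.65 and -0.62. In DKO against WT Mo-MDSCs none of 9 was called in limma, and 3 had an unadjusted p below 0.05, all of them higher. The smallest p-values were those of Fcmr (0.38, adjusted p = 0.224) and Fcer2a, the low-affinity IgE receptor, which is also among the B cell markers (0.46, adjusted p = 0.24).

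The list of other signalling adaptors, most of them with an ITAM, and of receptors that pair with Fcer1g had the lowest median of the lists. It also holds Hcst, an adaptor without an ITAM. Of 11 genes tested, 10 were lower in WT Mo-MDSCs and none was higher, with a median log2 fold change of -1.74. With TPM 7 were lower and 1 was higher. Tyrobp (DAP12), the other ITAM adaptor of myeloid cells, was at 4348 ± 725 FPKM in PMN-MDSCs and 1834 ± 195 FPKM in WT Mo-MDSCs (SD, n = 3), with a log2 fold change of -1.24 (adjusted p = 0.00104). The C-type lectins Clec4d and Clec4e, which sense microbial glycolipids through Fcer1g, had log2 fold changes of -5.87 and -2.93. Clec4d averaged 362 FPKM in PMN-MDSCs and 6.07 FPKM in WT Mo-MDSCs. Cd300ld (-2.60) and Tarm1 (-2.27), an activating receptor of neutrophils, followed. Fcer1g itself thus changed less than 9 of the 10 genes called in this list, Clec4b1 being the exception at -0.43. In DKO against WT Mo-MDSCs none of 12 was called, and 5 had an unadjusted p below 0.05. Clec4d had the smallest p, with 11.6 FPKM in DKO and 6.07 FPKM in WT Mo-MDSCs (log2 fold change 0.91, adjusted p = 0.0602, and 0.0162 with TPM), followed by Hcst (-0.50, adjusted p = 0.265).

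Of 25 genes of activating signalling, 13 were lower and 3 higher in WT Mo-MDSCs, with a median of -0.27. With TPM 9 were higher and 3 lower, beside 5821 and 950 of all 11491 genes. Syk, the kinase that binds the phosphorylated ITAM, was at 248 ± 14.8 FPKM in PMN-MDSCs and 167 ± 3.15 FPKM in WT Mo-MDSCs (log2 fold change -0.57, adjusted p = 0.00124). Pik3r5, a regulatory subunit of PI3K gamma, was lower (-0.88), as were the docking protein Gab2 (-0.87) and the Src-family kinase Fgr (-0.77). The adaptor Lat2 was higher, at 0.64. In DKO Mo-MDSCs none of the 25 passed, 6 had an unadjusted p below 0.05, and the smallest p-values were those of Lat2 (-0.38, adjusted p = 0.141) and Card9, an adaptor downstream of Syk (-0.82, adjusted p = 0.156).

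Of 22 inhibitory receptors and phosphatases, 9 were lower and 4 higher in WT Mo-MDSCs, with a median of -0.12, and TPM gave 10 higher and 5 lower. The partner of Fcgr2b, Inpp5d (SHIP1), was at 92.4 ± 4.37 FPKM in PMN-MDSCs and 82.03 ± 1.702 FPKM in WT Mo-MDSCs and did not pass the test (log2 fold change -0.17, adjusted p = 0.0927). Ptpn6 (SHP-1), the tyrosine phosphatase of other ITIM receptors, was lower (-0.64, adjusted p = 0.0024). The inhibitory receptors Cd300lf (-2.32) and Siglece (-1.37) were lower too, as were Pag1 (-1.65), which anchors the kinase Csk, and Ptpn12 (-1.24). Fcgr2b, with 1.98, was thus above every gene of this list, the highest of which was Inppl1 (SHIP2) at 0.79. In DKO Mo-MDSCs none of the 22 was called, 5 had an unadjusted p below 0.05, and the smallest p-values were those of Ceacam1 (-0.81, adjusted p = 0.155) and Inppl1 (0.33, adjusted p = 0.18).

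**Figure D4:**
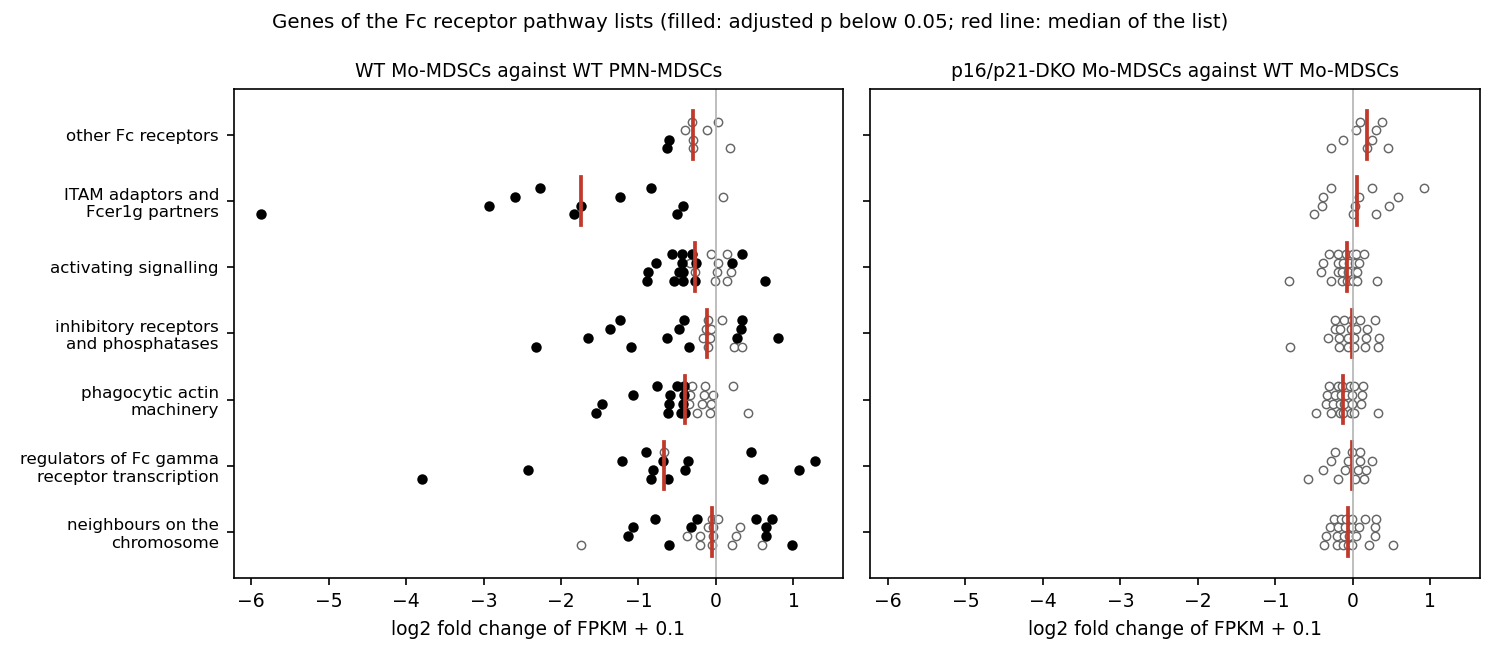
Log2 fold change of FPKM + 0.1 of each tested gene of the lists in both comparisons, filled where the adjusted p is below 0.05, with the median of each list as a red line. In WT Mo-MDSCs against PMN-MDSCs the list labelled ITAM adaptors and Fcer1g partners, which also holds Hcst, has the lowest median at -1.74. In p16/p21-DKO against WT Mo-MDSCs no gene of any list is filled.

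Of 25 genes of the actin machinery of phagocytosis, 13 were lower and none higher in WT Mo-MDSCs, with a median of -0.40. With replicate number as a block 19 were lower and 2 higher, and with TPM 4 were lower and 7 higher. The actin-severing protein Gsn (-1.55), the haematopoietic GTPase Rac2 (-1.47), Marcks (-1.08) and Arpc3 of the actin-nucleating complex (-0.76) had the largest changes, of which Marcks and Arpc3 were not called after quantile normalization (adjusted p = 0.0523 and 0.0809). Rac2 averaged 599 FPKM in PMN-MDSCs and 216 FPKM in WT Mo-MDSCs. In DKO Mo-MDSCs none of the 25 was called and 3 had an unadjusted p below 0.05, with Gsn (-0.47, adjusted p = 0.246) and Arpc1b (-0.35, adjusted p = 0.273) having the smallest p-values.

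Of 15 known regulators of Fc gamma receptor transcription, 10 were lower and 4 higher in WT Mo-MDSCs, with a median of -0.68, and with TPM 6 were lower and 4 higher. C5ar1, the receptor whose signal raises activating Fc gamma receptors on macrophages, was at 199 FPKM in PMN-MDSCs and 14.4 FPKM in WT Mo-MDSCs (-3.79, adjusted p = 2.62e-05). Its relative C5ar2 (listed as Gpr77) was lower as well (-2.43). Spi1, which encodes PU.1 (listed as Sfpi1), was at 584 ± 116 FPKM in PMN-MDSCs and 251 ± 32.3 FPKM in WT Mo-MDSCs (-1.21, adjusted p = 0.00122). Cebpa (1.28) was the highest of the 4 higher genes, which also included Il10ra (1.07), the interferon-gamma receptor chain Ifngr1 (0.60) and Irf8 (0.45). In DKO Mo-MDSCs none of the 15 was called, and 3 had an unadjusted p below 0.05. Spi1 averaged 169 ± 25.1 FPKM there (log2 fold change -0.57, adjusted p = 0.169), with no overlap with WT, and Stat3 had a value of -0.38 (adjusted p = 0.17).

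To see how far the genome around the receptors moved with them, 43 genes with an annotated start within 250 kb of a member were listed, of which 25 were tested. Of these, 5 were higher and 6 lower in WT Mo-MDSCs, with a median of -0.05. These counts were near the shares of all genes, 18.5% higher and 20.6% lower. With TPM 12 were higher and 1 lower, beside 5821 and 950 of all 11491 genes. The histone gene Hist2h3c1 (-1.13), the galactosyltransferase gene B4galt3 (-1.07), the junctional protein gene F11r (0.98) and the deubiquitinase gene Otud7b (-0.78) had the largest changes among the genes called, of which Hist2h3c1 and Otud7b were not called with TPM (adjusted p = 0.086 and 0.0605). None of the 25 was called in DKO Mo-MDSCs and 6 had an unadjusted p below 0.05, where Ufc1 (-0.29, adjusted p = 0.199) and Fcrla (0.30, adjusted p = 0.269) had the smallest p-values.

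The labels of the cells were checked by marker genes. Of 10 Mo-MDSC markers, 8 were higher in the Mo-MDSCs of WT mice, and of 9 PMN-MDSC markers tested 5 were lower, while Ly6g was not analysed here. The 5 were Cxcr2 (log2 fold change -6.00), Mmp9 (-5.74), Retnlg (-5.60), Csf3r (-4.24) and Mmp8 (-2.84). Ngp, Camp, Lcn2 and Ltf were not called. The summed PMN-MDSC markers overlapped between the subsets, at 13544 to 35195 FPKM in PMN-MDSCs against 5415 to 16919 FPKM in WT Mo-MDSCs, and the DKO samples had 2414 to 5176 FPKM. All 9 PMN-MDSC markers were lower in WT Mo-MDSCs with replicate number as a block. The deleted genes did not separate the genotypes. Cdkn2a, which encodes p16, was at 0.718, 0.772 and 0.432 FPKM in WT and at 0.258, 0.586 and 0 FPKM in the DKO samples. Cdkn1a, which encodes p21, averaged 7.56 ± 0.956 FPKM in WT samples of Mo-MDSCs and 6.69 ± 1.599 FPKM in DKO samples (SD, n = 3). These values are sums over whole genes and cannot show whether the deleted parts were transcribed, so that the genotype rests on the labels.

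Markers of other spleen cells were present, and fewer cells of a type and less RNA per cell cannot be told apart in these bulk samples. The 8 red-pulp macrophage markers, cells that express activating Fc gamma receptors, summed to 5779 to 6875 FPKM in PMN-MDSCs, against 3681 to 4732 FPKM in WT and 3974 to 6062 FPKM in p16/p21-DKO Mo-MDSCs, and 5 of the 8 were lower in the Mo-MDSCs of WT mice, as Fcgr3, Fcgr4 and Fcer1g were. In replicates 2 and 3 alone none of the 8 passed, and with TPM 1 was higher and none lower. Their part in the values of these 3 receptor genes was not tested. Of the 8 B cell markers 3 were lower in WT Mo-MDSCs, or 7 with replicate number as a block, while TPM gave 1 higher and none lower and quantile normalization 1 higher and 1 lower, and their sum in DKO Mo-MDSCs was 1208 to 1556 FPKM. All 7 NK cell markers were too low to be tested and summed to at most 3.97 FPKM in any sample. The 7 T cell markers found summed to 19.3 to 38.2 FPKM, with 2 of 6 lower in WT Mo-MDSCs, and the 7 dendritic cell markers to 7.70 to 16.3 FPKM, with 2 of 4 higher. The mast cell and basophil list rested on Hdc, which neutrophils also express, at 321 FPKM in PMN-MDSCs and 15.8 FPKM in WT Mo-MDSCs, while Fcer1a, the alpha chain that pairs with Fcer1g in those cells, averaged 0.0464 to 0.0996 FPKM in the groups. The 7 erythroid markers summed to 1711 to 4030 FPKM over all samples, and between the subsets none was called or had an unadjusted p below 0.05, while 1 was higher with replicate number as a block. Between DKO and WT Mo-MDSCs no marker of any list was called in limma. An unadjusted p below 0.05 was found for 20 of 54 tested, among them 7 of 9 PMN-MDSC markers, against 15% of all genes. With TPM 1 Mo-MDSC marker was lower in DKO Mo-MDSCs and no other marker was called.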

How the data were processed

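The authors prepared stranded mRNA libraries, sequenced 75-base single-end reads, mapped them to mm10 with TopHat2 2.0.13, Bowtie2 2.2.3 and SAMtools 0.1.19, and deposited FPKM values per gene symbol from Cuffnorm 2.2.1 (tools per the submitters' processing notes). The annotation and the library scaling within Cuffnorm are not given in the sources used here. Read depth is unknown: total FPKM was 494252 to 916642 per sample and the upper quartile of values above 0 was 22.0 to 24.5. Steps of single reads in low genes put relative depth between 0.809 and 1.31. No 2 samples were identical, and Spearman correlations within groups were 0.966 to 0.975.

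Groups were taken from the labels. Genes reaching 1 FPKM in 3 or more of the 6 samples compared were fitted as log2(FPKM + 0.1) with limma 3.58.1 (trend, no covariates, R 4.3.3), with Benjamini-Hochberg adjustment over all genes tested and a threshold of 0.05. Log2 fold changes understate those of low genes. The script was tested on simulated data. Same-numbered WT PMN- and Mo-MDSC samples deviated together (r of 0.294, 0.483 and 0.200). The main fit did not pair them, and the fit with replicate number as a block is given beside it where it matters. The labels number replicate 1 of each group in an earlier library series.

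The members and lists were chosen with earlier results of these data known. Named genes were all members, for each list up to 4 called genes with the largest change and no overlap (or the 2 smallest p-values where none was called), the 3 genes most like each member, Cdkn2a, Cdkn1a and cell markers. Other genes named from the lists (Tyrobp, Syk, Inpp5d, Ptpn6, Inppl1, Clec4b1, Il10ra, Ifngr1, Irf8, Fcgrt) were picked for their roles or rank after their values were seen. Older symbols were matched through RefSeq synonyms. Promoters are from RefSeq (GRCm38.p6), with all 5 members matched, and transcripts and positions from GENCODE. Alternatives were pseudocounts of 1 and 0.01, other filters, all 9 samples in 1 fit, TPM, quantile normalization, the block, replicates 2 and 3 only, and leaving out each sample. Python 3.11.15 with pandas 2.3.3, numpy 2.4.6, scipy 1.17.1 and matplotlib 3.10.9 was used.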

Additional observations from a re-analysis of the deposited data

How the results depend on the processing

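In WT Mo-MDSCs against PMN-MDSCs, Fcgr1, Fcgr2b, Fcgr3 and Fcgr4 kept their direction and an adjusted p below 0.05 in limma in all 15 alternatives, the highest adjusted p being 0.0223 for Fcgr1 in replicates 2 and 3 only. Fcer1g kept its direction and lost its call in 9 of 15. Its log2 fold change was -0.46 without a filter (adjusted p = 0.092) and -0.46 with all 9 samples in 1 fit (0.073). It was -0.013 with TPM (0.924), -0.17 after quantile normalization (0.225), -0.52 in replicates 2 and 3 only (0.0936), and -0.56 to -0.34 when single samples were left out. The 4492 genes called became 6771 with TPM, 86.0% of them higher against 47.2% before (54.9% after quantile normalization), 2952 in replicates 2 and 3 only and 3413 to 3972 with 1 sample left out. Quantile normalization moved the log2 ratio differences to -2.75 (Fcgr3 to Fcgr2b), -2.64 (activating sum to Fcgr2b) and 0.24 (Fcer1g to activating sum). With replicate number as a block 6584 genes were called and no member's call changed.

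Between DKO and WT Mo-MDSCs no member was called in any of 15 alternatives, and Fcgr3 changed sign with TPM (0.029) and quantile normalization (0.074). The 29 genes called became 13 without a filter, 51 with all 9 samples in 1 fit, 7 in replicates 2 and 3 only and 8 to 23 with 1 sample left out. Same-numbered samples correlated at 0.348, 0.226 and -0.07, and the main fit did not pair them either. The block gave 20 genes, and an adjusted p of 0.158 for Fcgr2b. TPM moved the median of all genes by 0.155. The causes were not tested. Read counts were not analysed, and the median standard error of 0.118 between subsets and 0.122 between genotypes sets what could be detected.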
